A study of Homo sapiens with 22 samples.

Results

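The DNA replication machinery was followed as 39 human genes taken by name from a count table of 58735 genes, and each symbol was found once. They cover origin licensing, the MCM helicase, helicase activation, the sliding clamp and its loader, primase with polymerase alpha, polymerases delta and epsilon, Okazaki fragment maturation, nucleotide supply and fork protection. Each of the 39 passed the filter on low counts, so each was among the 17652 genes tested. Expression was measured by strand-specific RNA-seq of total RNA from 22 xenograft tumours grown from H2110, an established line from a human lung adenocarcinoma that the labels call wild type. The injected cells grew to tumours of about 300 mm³, which were then dosed by mouth on 3 consecutive days. Of these, 6 tumours received Vehicle and 4 tumours each received RMC-7977 at 10 mg/kg, RMC-4550 at 30 mg/kg, Trametinib at 0.3 mg/kg or Cobimetinib at 3 mg/kg. RMC-7977 inhibits RAS proteins in their active state, RMC-4550 inhibits the phosphatase SHP2 upstream of RAS, and Trametinib and Cobimetinib inhibit the MEK kinases downstream of RAS. All groups share 1 cell line, the host species is not given in the sources used here, and the doses differ between compounds, so every difference between drugs holds at these doses only. The labels number the tumours as replicates but do not say that they came from separate animals, so the p-values measure only the spread between these samples, which may in part be technical.

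Chromosome replication starts when the origin recognition complex, CDC6 and CDT1 load the ring-shaped MCM helicase onto DNA, a step called licensing. In S phase CDC45, the GINS proteins and MCM10 turn the loaded ring into a moving helicase, primase and polymerase alpha lay down primers, RFC places the PCNA clamp, and polymerases delta and epsilon copy the strands from nucleotides whose supply depends on ribonucleotide reductase. Many of these genes are textbook targets of E2F transcription factors, which become active when growth signals, RAS and ERK signalling among them, carry cells from quiescence into the cycle.

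Promoter sequence was available in the RefSeq table (build GRCh38.p14, from 250 bases before to 50 after the start) for 35 of the 39 genes, and MCM4, MCM5, GINS4 and POLD3 had no entry. The promoters of RRM2 and MCM10 are shown because these are the members that passed the test below. Those of CDC6 and MCM6 are shown because they hold E2F-like words of the search, which the first pair lacks. Other spellings of E2F-like sites were not searched, so a window without these words may still hold one. Capitals mark matches, on either strand, to CCAAT, read by the factor NF-Y, and to the E2F-like words TTTCCCGC, TTTGGCGC, TTTCGCGC and TTTGCCGC.
RRM2 (chr2:10122489-10122788, + strand): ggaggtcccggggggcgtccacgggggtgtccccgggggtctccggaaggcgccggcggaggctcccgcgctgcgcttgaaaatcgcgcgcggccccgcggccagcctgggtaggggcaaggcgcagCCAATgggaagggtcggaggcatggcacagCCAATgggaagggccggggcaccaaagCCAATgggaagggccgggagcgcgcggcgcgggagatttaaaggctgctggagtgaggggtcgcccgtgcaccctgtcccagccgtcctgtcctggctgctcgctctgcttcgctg
MCM10 (chr10:13161308-13161607, + strand): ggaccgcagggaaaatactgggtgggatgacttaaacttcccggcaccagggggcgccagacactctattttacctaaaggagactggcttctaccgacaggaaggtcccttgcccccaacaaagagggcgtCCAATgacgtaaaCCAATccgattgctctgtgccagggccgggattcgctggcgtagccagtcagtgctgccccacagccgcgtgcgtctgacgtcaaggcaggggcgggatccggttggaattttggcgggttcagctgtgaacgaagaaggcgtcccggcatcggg
CDC6 (chr17:40287629-40287928, + strand): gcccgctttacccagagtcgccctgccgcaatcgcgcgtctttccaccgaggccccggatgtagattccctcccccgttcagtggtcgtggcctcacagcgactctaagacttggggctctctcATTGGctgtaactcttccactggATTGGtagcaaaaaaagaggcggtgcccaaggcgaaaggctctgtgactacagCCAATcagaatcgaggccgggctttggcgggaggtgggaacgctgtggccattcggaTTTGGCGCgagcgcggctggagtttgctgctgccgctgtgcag
MCM6 (chr2:135876394-135876693, - strand): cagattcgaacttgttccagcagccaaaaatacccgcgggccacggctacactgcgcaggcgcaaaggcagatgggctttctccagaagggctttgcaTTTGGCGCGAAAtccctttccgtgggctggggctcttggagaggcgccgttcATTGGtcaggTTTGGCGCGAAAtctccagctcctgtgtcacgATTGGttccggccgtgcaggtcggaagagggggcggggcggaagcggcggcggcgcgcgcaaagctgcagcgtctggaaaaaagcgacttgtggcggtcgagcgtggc
The RRM2 window held 3 CCAAT matches and the MCM10 window 2, with 0 E2F-like words in each. CDC6 had 3 CCAAT matches and 1 E2F-like word, 8 bases after the start. In MCM6 there were 2 CCAAT matches and 4 E2F-like words, which lie as overlapping pairs on opposite strands and were each counted. In 1 of the 35 promoters an E2F-like and a CCAAT match shared bases. Over the 35 promoters, 18 (51.4%) held an E2F-like word, against 3.33% of the 27305 promoters of this length in the table and 5.16% of the 11060 that belong to genes tested here. CCAAT occurred in 21 members (60.0%) and in 35.7% of all promoters. A match to the words TTTGAA or TTCGAA, which are parts of the cell cycle element CHR, was found in 2 members (5.71%) and in 16.6% of all promoters. A match describes these letters only and is not a measured binding site.

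The libraries held 7761987 to 17265754 counts, and the members together took 13888 to 65583 of them per tumour. Of the genes that respond to ERK, DUSP6 is given here, which passed the edgeR test under RMC-7977 and RMC-4550 only. DUSP6, a phosphatase that ERK induces, was at a mean of 18.5 ± 6.59 CPM (TMM-scaled counts per library, SD, n = 6) in Vehicle tumours. The means with RMC-7977, RMC-4550, Trametinib and Cobimetinib were 1.42, 1.60, 2.55 and 5.81 CPM. Its log2 fold changes in that order were -3.69, -3.52, -2.80 and -1.67 with edgeR adjusted p of 0.000990, 0.0191, 0.0663 and 0.913. The label of the cell line was met by high KRT8 (median 1252 CPM), KRT19 and EPCAM, while the lung lineage markers NKX2-1 and NAPSA had medians of 2.84 and 1.16 CPM. Among the 22 libraries 4 stood apart, and they were marked with earlier results of these data known. In Trametinib replicate 4 only 1.99% of detected genes had 1 or 2 counts, ribosomal protein genes took 25.0% of counts and the median correlation with the other libraries was 0.795. RMC-7977 replicate 3 likewise had few low counts (5.02% of detected genes, against 13.4% to 22.9% in the other 20 libraries). Vehicle replicate 1 and RMC-4550 replicate 1 had the most negative rank correlations of expression with GC content (-0.54 and -0.59). Counts of called members are therefore given with all tumours and without these 4.

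Per unit of the deposited gene length, which is the union of a gene's annotated exons, the clamp was the most abundant member. This length was 1471 bases for PCNA and 16609 for POLE, so the order of members depends in part on the annotation. In Vehicle tumours PCNA, the ring that tethers polymerases to DNA, stood at 369 ± 56.5 TPM (counts scaled by gene length and library, SD, n = 6). The helicase subunits MCM3 (203 TPM), MCM7 (169 TPM) and MCM4 (160 TPM) and the polymerase delta subunit POLD2 (186 TPM) came next. Neighbours among these 4 differed by less than the SD of either (14.6 to 29.3 TPM), so their order is not firm. At the other end lay GINS3 (7.10 TPM) and GINS4 (5.85 TPM) of the GINS complex and POLA2 (5.25 TPM) of polymerase alpha. MCM10, at 16.0 ± 6.26 TPM, was in the lower range, and RRM2, the small subunit of ribonucleotide reductase, was at 56.4 ± 14.9 TPM. Of the 39 genes, 17 share exon bases with another gene in GENCODE 29, 8 of them over more than 10% of their exon bases, and 7 have named pseudogenes, among them RRM2 and PCNA. RRM2 shares 20.2% of its exon bases with AC007240.1 on the same strand, and MCM10 shares none. How the authors' counting treated such reads is not given in the sources used here.

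RMC-7977 was set against Vehicle to ask how blocking active RAS moved the replication genes. RRM2 and MCM10 fell, to about the same degree, and no member passed the test as higher. The other 37 did not pass the test, yet 37 of the 39 log2 fold changes were below 0, with a median of -0.28, while 50.7% of all genes tested were below 0 with a median of -0.01. The mean log2 CPM over the 39 genes was 5.87 ± 0.12 (SD, n = 6) under Vehicle and 5.55 ± 0.09 (SD, n = 4) under RMC-7977. All 4 RMC-7977 tumours (5.45 to 5.67) lay below all 6 Vehicle tumours (5.74 to 6.04). In bulk tumour RNA, fewer cells in S phase and less RNA of these genes per cell cannot be told apart.

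**Figure D1:**
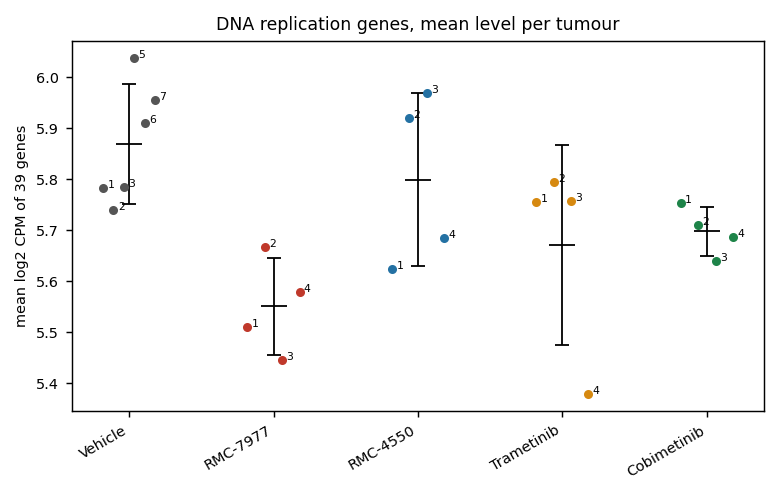
Mean log2 CPM of the 39 replication genes in each of the 22 tumours (points, numbered by replicate), with the mean and SD of each group as bars. The 4 RMC-7977 tumours lie below the 6 Vehicle tumours, and Trametinib replicate 4 is the lowest of all at 5.38.

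With p-values from the quasi-likelihood test of edgeR, adjusted over all genes by the Benjamini-Hochberg method, 2 of 39 members were called lower and 0 higher, where 0.448% of all genes were called lower, 0.300% higher and 0.748% in either direction. At an unadjusted p of 0.05, 10 members were lower and 0 higher, against a background of 5.47% of genes lower and 4.87% higher. In 6 members (MCM4, MCM7, MCM10, GINS4, RFC4 and RRM2) every RMC-7977 tumour lay below every Vehicle tumour, which held for 1.90% of all genes. The highest of the log2 fold changes was 0.03, for CDT1. The number of calls moved with the model and the libraries. DESeq2 called 4 members lower, adding GINS4 and POLD2, with 3.04% of genes called. limma voom with library quality weights called 14 members and 16.7% of all genes. Without the 4 libraries apart 6 were called lower (CDC45, GINS1, MCM10, POLD2, RFC4 and RRM2), at a background of 6.38% of genes called. Without Trametinib replicate 4 alone there were 3 calls, with POLD2 added, at a background of 3.01%. A fit to the compared groups alone called 0. Leaving out Vehicle replicate 5 or any 1 of RMC-7977 replicates 1, 2 and 4 took away both calls, and leaving out RMC-7977 replicate 3 took away MCM10.

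RMC-4550 was compared with Vehicle for the effect of a block upstream of RAS, and no member passed the test in either direction. A missed threshold does not show that no member changed. Of the 39 members 23 had a log2 fold change below 0 (50.7% of all genes did) and the median was -0.05. The edgeR test called 0 members, with 0.0283% of all genes called, and so did DESeq2 and limma voom. At an unadjusted p of 0.05, 0 members were lower and PRIM1, the catalytic subunit of primase, was higher (0.42 ± 0.20, SE), where 1.42% of genes were lower and 2.82% higher. The mean level of the 39 genes was 5.80 ± 0.17 log2 CPM, inside the Vehicle range in 2 of 4 tumours. RMC-4550 replicates 1 and 4, at 5.62 and 5.68, lay below it. No member separated the groups completely, as 0.465% of all genes did in the lower and 0.952% in the higher direction. Without the 4 libraries apart the count stayed at 0, with 0.0619% of genes called, and the median was -0.01.

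Under Trametinib 26 of 39 members were below 0, against 50.4% of all genes, with a median of -0.18. The edgeR test called 0 members and 0% of all genes, as did DESeq2 for the members. CDC45 (-0.44 ± 0.17) was lower and RFC2, a clamp loader subunit, higher (0.50 ± 0.24) at an unadjusted p of 0.05, where 7.17% of genes were lower and 11.7% higher. No member separated from Vehicle in every tumour, as 0.629% of genes did in the lower and 0.538% in the higher direction. The MCM subunits lay between -0.65 (MCM5) and -0.18 (MCM6). Trametinib replicate 4 set part of these values. In that tumour the mean level was 5.38 log2 CPM, while the other 3 Trametinib tumours spanned 5.76 to 5.80 and lay inside the Vehicle range. Without it the median was -0.10 and the count stayed at 0. Without all 4 libraries apart, 4 members were called lower, namely MCM5 (-0.51 ± 0.16), POLA2 (-0.86 ± 0.21), POLD1 (-0.85 ± 0.21) and POLE (-0.83 ± 0.22), with edgeR adjusted p of 0.0390, 0.0133, 0.0152 and 0.0187, at a background of 15.1% of genes called. The GC content of these 4 genes was 57.5%, 52.2%, 64.8% and 55.5%, above the members' median of 49.1%, and Trametinib replicates 1 and 2 had GC rank correlations of -0.49 and -0.42 where the 5 Vehicle tumours kept in this fit had 0.30 to 0.43. The part of GC content in these 4 calls was not tested. limma voom with library quality weights called 18 members, 12 lower and 6 higher, where 44.6% of all genes were called.

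Under Cobimetinib 33 of 39 members were below 0, against 51.2% of all genes, with a median of -0.20. None passed the edgeR test, where 0% of all genes did, and the count was also 0 by DESeq2 and by limma voom. At an unadjusted p of 0.05 there were 5 lower members, CDC45, POLA1, PRIM2, RRM1 and RRM2, and 0 higher, with 2.31% of genes lower and 0.986% higher. MCM6 and PRIM2 lay below every Vehicle tumour in all 4 Cobimetinib tumours, a pattern seen in 0.799% of genes. The mean level was 5.70 ± 0.05 log2 CPM, and 3 of the 4 tumours lay below the lowest Vehicle tumour. Without the 4 libraries apart the count stayed at 0, with 0.0450% of genes called, the median was -0.22 and 15 members were lower at an unadjusted p of 0.05.

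**Figure D2:**
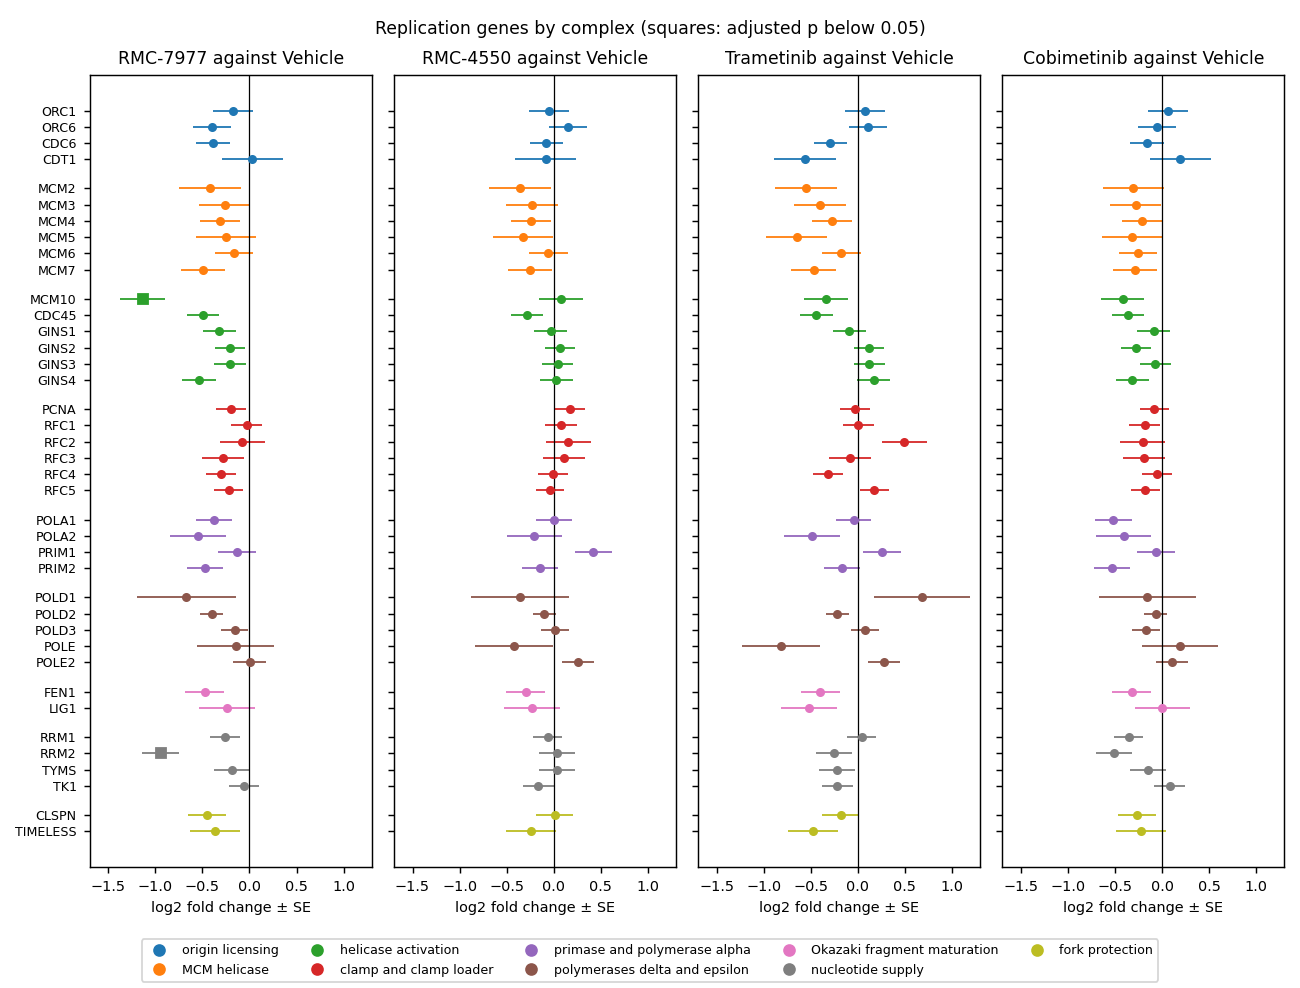
Log2 fold change against Vehicle with its SE (x axis) for the 39 genes, grouped by complex (colours), in 4 panels, 1 per drug. Squares mark the members past an adjusted p of 0.05, which are RRM2 and MCM10 under RMC-7977, where 37 of 39 values lie left of 0.

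No licensing factor passed the test in any comparison with Vehicle. CDC6, the ATPase that helps load MCM onto origins, had a Vehicle range of 63.5 to 112 CPM with a median of 80.9, and the RMC-7977 tumours gave 52.1, 63.4, 75.1 and 64.3 CPM. Of these, 2 lay just below the lowest Vehicle tumour and 2 inside the range. RMC-4550 gave 80.9, 85.9, 79.4 and 69.2 CPM, Trametinib 78.7, 78.5, 68.8 and 45.4 CPM, and Cobimetinib 76.9, 64.9, 78.9 and 76.9 CPM. Only Trametinib replicate 4 was below the Vehicle range among these 12. The log2 fold changes were -0.39 ± 0.18, -0.08 ± 0.18, -0.29 ± 0.18 and -0.16 ± 0.18 (SE) in the order RMC-7977, RMC-4550, Trametinib and Cobimetinib, with edgeR adjusted p of 0.448, 0.986, 0.366 and 1.00. ORC1 and ORC6, subunits of the origin recognition complex, ranged from -0.40 (ORC6 under RMC-7977) to 0.15 (ORC6 under RMC-4550). CDT1, the partner of CDC6 in loading, ranged from -0.56 under Trametinib to 0.19 under Cobimetinib, with SEs of 0.32 to 0.33.

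All 6 subunits of the MCM helicase had log2 fold changes below 0 in each of the 4 comparisons with Vehicle, which share the Vehicle tumours, and none passed the test. For MCM6 the sign did not hold in every fit. Under RMC-4550 it was at 0.02 with a replicate block, 0.01 with limma voom and 0.06 without the 4 libraries apart, and under Trametinib at 0.03 without Trametinib replicate 4, 0.10 with limma voom and 0.05 without the 4 libraries apart. MCM7 had a Vehicle range of 193 to 265 CPM with a median of 238, and the RMC-7977 tumours gave 174, 173, 129.97 and 192 CPM. The groups did not overlap, though replicate 4 came close to the lowest Vehicle tumour. RMC-4550 gave 122, 234, 228 and 208 CPM, Trametinib 166, 197, 236 and 81.3 CPM, and Cobimetinib 190, 244, 147 and 194 CPM. Each of these groups had tumours inside and below the Vehicle range, with the lowest at RMC-4550 replicate 1 and Trametinib replicate 4. The MCM7 log2 fold changes were -0.50 ± 0.24, -0.25 ± 0.23, -0.47 ± 0.24 and -0.28 ± 0.23 (SE), with edgeR adjusted p of 0.470, 0.986, 0.281 and 1.00. MCM4 was the other subunit without overlap under RMC-7977, where tumours of 227 to 312 CPM faced Vehicle tumours of 330 to 390 CPM (-0.32 ± 0.21, adjusted p = 0.701). In MCM6, all 4 Cobimetinib tumours (107 to 120 CPM) lay below Vehicle (126 to 142 CPM; -0.26 ± 0.21, adjusted p = 1.00). MCM2, MCM3 and MCM5 ranged from -0.65 to -0.23 over the 4 drugs.

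Of the 9 complexes, helicase activation had the largest mean difference under RMC-7977, with the log2 CPM averaged over its 6 genes at 4.04 against 4.51 under Vehicle. By the median log2 fold change, primase and polymerase alpha lay lower (-0.43 against -0.41). MCM10, which joins the helicase at firing and helps it unwind, had a Vehicle range of 17.9 to 44.6 CPM with a median of 27.1. In the RMC-7977 tumours it was at 10.0, 14.2, 14.3 and 11.8 CPM, all below every Vehicle tumour. MCM10 fell by 1.14 ± 0.24 (SE) on the log2 scale, which is 54.5% lower, with an edgeR adjusted p of 0.0234. RMC-4550 gave 29.5, 31.3, 37.6 and 18.1 CPM, Trametinib 25.3, 18.8, 22.7 and 20.5 CPM, and Cobimetinib 24.1, 17.6, 19.1 and 21.7 CPM. Apart from Cobimetinib replicate 2, which was just below, these tumours lay inside the Vehicle range, with log2 fold changes of 0.08 ± 0.23, -0.34 ± 0.23 and -0.42 ± 0.23 and edgeR adjusted p of 0.987, 0.421 and 1.00. Vehicle itself was wide for MCM10, and leaving out its highest tumour, replicate 5, gave -0.94 with an adjusted p of 0.0634. Leaving out any 1 RMC-7977 tumour gave -1.22 to -1.06 with adjusted p of 0.0515 to 0.121, so the call needed all 4 of them.

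CDC45, a core part of the active helicase, was the only member with an unadjusted p under 0.05 in 3 of the 4 comparisons. Its Vehicle range was 28.6 to 48.7 CPM with a median of 42.8, and RMC-7977 gave 21.9, 31.6, 34.2 and 27.9 CPM. RMC-4550 gave 28.4, 39.65, 35.1 and 30.6 CPM, Trametinib 35.2, 27.7, 25.2 and 32.0 CPM, and Cobimetinib 28.1, 34.3, 32.0 and 32.2 CPM. All 16 treated tumours lay below the Vehicle median, and the ranges overlapped in every comparison because Vehicle replicate 2 was as low as the treated tumours. The log2 fold changes were -0.50 ± 0.17, -0.29 ± 0.17, -0.44 ± 0.17 and -0.36 ± 0.17 (SE), with edgeR adjusted p of 0.221, 0.986, 0.185 and 1.00. Without the 4 libraries apart CDC45 passed under RMC-7977 (-0.57 ± 0.17, edgeR adjusted p = 0.0445). GINS4, singled out after its values were seen, was at 7.91, 6.65, 7.06 and 6.50 CPM under RMC-7977, all below the Vehicle range of 8.57 to 12.2 CPM. Its log2 fold change of -0.54 ± 0.18 missed the threshold in edgeR (adjusted p = 0.191) and passed it in DESeq2 (adjusted p = 0.0261). GINS1, GINS2 and GINS3, the other subunits of this ring-shaped helicase cofactor, lay between -0.32 and -0.20 under RMC-7977.

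**Figure D3:**
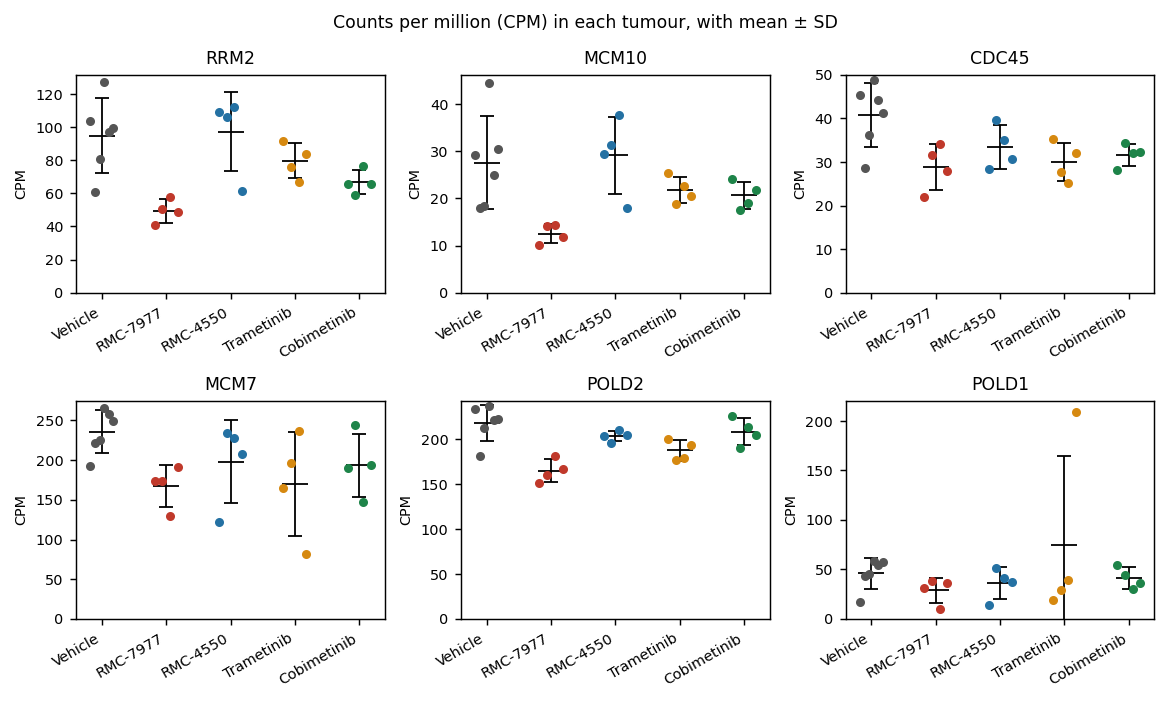
CPM of RRM2, MCM10, CDC45, MCM7, POLD2 and POLD1 in each tumour (points), with group means and SDs (n = 6 under Vehicle, n = 4 per drug). The RMC-7977 points of RRM2, MCM10 and MCM7 lie below all Vehicle points, and POLD1 reaches 209 CPM in 1 Trametinib tumour.

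The clamp and its loader had the smallest mean difference of the 9 complexes under RMC-7977 (-0.17 log2 CPM over 6 genes), and none of them passed. By the median log2 fold change, polymerases delta and epsilon differed less (-0.16 against -0.21). PCNA had log2 fold changes of -0.19 ± 0.16, 0.17 ± 0.16, -0.03 ± 0.16 and -0.08 ± 0.16 (SE) and overlapped Vehicle in every group. RFC4, a subunit of the clamp loader, had a Vehicle range of 74.3 to 93.7 CPM with a median of 86.3, and RMC-7977 gave 64.8, 69.6, 73.6 and 67.4 CPM. These tumours all lay below Vehicle. RMC-4550 gave 90.8, 82.5, 81.5 and 82.7 CPM, Trametinib 78.2, 80.7, 72.9 and 40.0 CPM, and Cobimetinib 94.1, 80.4, 79.1 and 73.3 CPM. Trametinib replicate 4 was again the lowest, and Trametinib replicate 3 and Cobimetinib replicates 1 and 4 were just outside the Vehicle range. Its log2 fold changes were -0.30 ± 0.16, -0.01 ± 0.16, -0.32 ± 0.16 and -0.06 ± 0.16 (SE), with edgeR adjusted p of 0.553, 0.995, 0.286 and 1.00. RFC1, RFC2, RFC3 and RFC5 lay between -0.28 and -0.03 under RMC-7977.

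For priming, the 4 genes of primase and polymerase alpha all had log2 fold changes below 0 under RMC-7977 (-0.55 to -0.13) and under Cobimetinib (-0.53 to -0.07), and none passed. PRIM2, the regulatory subunit of primase, had a Vehicle range of 17.9 to 34.7 CPM with a median of 19.1, and RMC-7977 gave 14.01, 19.4, 16.1 and 13.7 CPM. Replicate 2 kept this group from separating. RMC-4550 gave 21.3, 18.4, 21.7 and 18.2 CPM, Trametinib 23.9, 21.4, 17.4 and 15.04 CPM, and Cobimetinib 15.8, 14.8, 16.5 and 13.6 CPM. All Cobimetinib tumours lay below Vehicle, where replicate 1 alone was above 30 CPM. The log2 fold changes were -0.47 ± 0.19, -0.14 ± 0.19, -0.17 ± 0.19 and -0.53 ± 0.19 (SE), with edgeR adjusted p of 0.354, 0.986, 0.636 and 1.00.

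Among the replicative polymerases POLD2, the accessory subunit of polymerase delta, was measured with the smallest SE of all members. Its Vehicle range was 181 to 237 CPM with a median of 222, and RMC-7977 gave 152, 161, 181 and 167 CPM. In this group 3 tumours lay below Vehicle and replicate 3 sat at its lower edge. RMC-4550 gave 203, 196, 211 and 205 CPM, Trametinib 201, 178, 179 and 194 CPM, and Cobimetinib 226, 190, 213 and 205 CPM. The first and last of these groups stayed inside the Vehicle range, and 2 Trametinib tumours were just below it. Its log2 fold changes were -0.40 ± 0.12, -0.10 ± 0.12, -0.22 ± 0.12 and -0.07 ± 0.12 (SE), with edgeR adjusted p of 0.144, 0.986, 0.329 and 1.00. Under RMC-7977 POLD2 passed without Trametinib replicate 4 (edgeR adjusted p = 0.0334) and in DESeq2 (adjusted p = 0.000795), while a correction for GC content gave -0.35 ± 0.22 (adjusted p = 0.555). POLD1, the catalytic subunit, was singled out after its values were seen. It was at 19.6, 28.98, 39.2 and 209 CPM in the 4 Trametinib tumours and at 17.4 to 58.9 CPM under Vehicle, and its log2 fold change of 0.68 ± 0.51 under Trametinib became -0.70 ± 0.42 without replicate 4. POLE, the catalytic subunit of polymerase epsilon, was at 28.3 CPM in Vehicle replicate 1, where the Vehicle median was 175 CPM.

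FEN1, the nuclease that trims Okazaki fragment flaps, had a Vehicle range of 87.2 to 136 CPM with a median of 106, and RMC-7977 gave 63.7, 91.3, 75.7 and 84.9 CPM. Of these, 3 were below the Vehicle range. RMC-4550 gave 67.3, 99.0, 108 and 82.5 CPM, Trametinib 104, 95.7, 92.3 and 40.2 CPM, and Cobimetinib 88.2, 82.3, 89.2 and 91.5 CPM. RMC-4550 replicate 1 and Trametinib replicate 4 were the lowest, and the others lay in the lower part of the Vehicle range or just under it. The log2 fold changes were -0.48 ± 0.21, -0.30 ± 0.21, -0.40 ± 0.21 and -0.32 ± 0.21 (SE), with edgeR adjusted p of 0.408, 0.986, 0.295 and 1.00. LIG1, the ligase that seals the fragments, ranged from -0.52 under Trametinib to 0.00 under Cobimetinib.

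Nucleotide supply held the second called gene. RRM2, the small subunit of ribonucleotide reductase that limits its activity over the cell cycle, had a Vehicle range of 61.1 to 128 CPM with a median of 98.3. In the RMC-7977 tumours it was at 40.7, 50.4, 58.0 and 48.7 CPM, all below every Vehicle tumour. RRM2 fell by 0.94 ± 0.20 (SE) on the log2 scale, which is 48.0% lower, with an edgeR adjusted p of 0.0223. RMC-4550 gave 109, 106, 112 and 61.7 CPM, Trametinib 91.75, 75.9, 67.2 and 84.0 CPM, and Cobimetinib 65.4, 58.9, 76.6 and 65.8 CPM. RMC-4550 and Trametinib stayed inside the Vehicle range, and Cobimetinib lay at its lower end with replicate 2 below it. The log2 fold changes of these 3 groups were 0.04 ± 0.19, -0.25 ± 0.19 and -0.51 ± 0.20, with edgeR adjusted p of 0.990, 0.468 and 1.00. Leaving out Vehicle replicate 5 gave -0.84 under RMC-7977 with an adjusted p of 0.0650. Leaving out RMC-7977 replicate 1, 2 or 4 gave adjusted p of 0.107, 0.0720 and 0.0710. RRM1, the large subunit of the same enzyme, was at -0.26 ± 0.16 under RMC-7977 and -0.36 ± 0.16 under Cobimetinib. The salvage kinase TK1 (-0.06 ± 0.16) and thymidylate synthase TYMS (-0.18 ± 0.19) stayed within the Vehicle range in all 4 RMC-7977 tumours.

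TIMELESS, which holds helicase and polymerase together at the fork, had a Vehicle range of 76.3 to 130 CPM with a median of 109, and RMC-7977 gave 83.6, 94.3, 72.8 and 85.3 CPM. Only replicate 3 was below Vehicle. RMC-4550 gave 56.4, 111, 117 and 82.0 CPM, Trametinib 82.3, 97.1, 102 and 27.7 CPM, and Cobimetinib 102, 99.1, 78.7 and 90.5 CPM. The lowest tumours were again RMC-4550 replicate 1 and Trametinib replicate 4. The log2 fold changes were -0.36 ± 0.26, -0.24 ± 0.26, -0.48 ± 0.27 and -0.22 ± 0.26 (SE), with edgeR adjusted p of 0.738, 0.986, 0.324 and 1.00. CLSPN, its partner in the checkpoint at stalled forks, was at -0.45 ± 0.20 under RMC-7977 (adjusted p = 0.420).

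**Figure D4:**
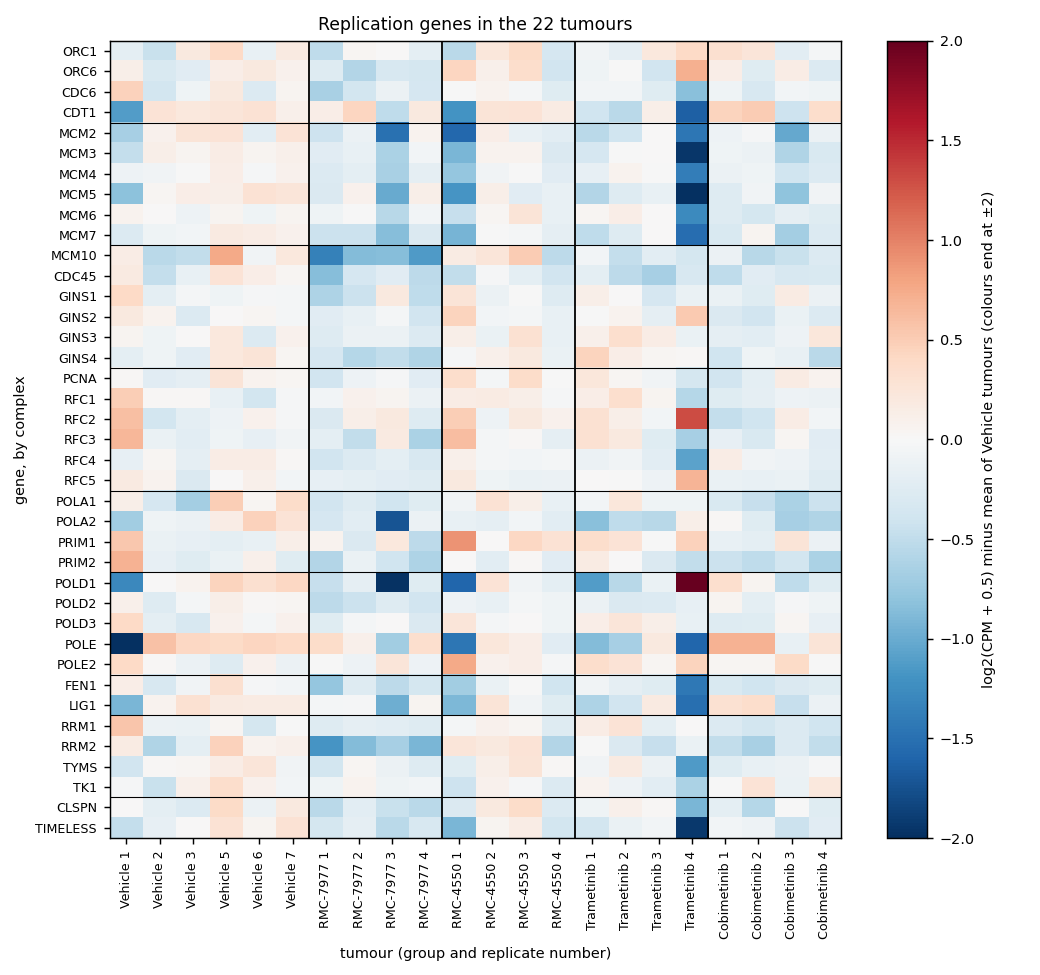
Log2(CPM + 0.5) of each of the 39 genes (rows, by complex) in each tumour (columns), minus the mean of the 6 Vehicle tumours, with colours ending at ±2. RMC-7977 columns are mostly blue, MCM10 and RRM2 are blue in all 4 of them, and Trametinib 4 has the most extreme column with POLD1 at the red end.

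Averaged over the 4 drug groups and set against Vehicle, 36 of 39 members were below 0 (50.9% of all genes were) with a median of -0.16. The edgeR test called 0 members, with 0.125% of all genes called, and DESeq2 also called 0. Unadjusted p-values under 0.05 marked 7 members as lower and 0 as higher, where 3.68% of genes were lower and 2.45% higher. limma voom with library quality weights called 10, where it called 15.3% of all genes. The smallest p among them belonged to CDC45 (-0.40 ± 0.12, unadjusted p = 0.00374, edgeR adjusted p = 0.476), followed by RRM2 (-0.42 ± 0.14) and MCM10 (-0.45 ± 0.17). Without the 4 libraries apart POLA2 and POLD1 were called lower, at a background of 3.99% of genes called. No member had all 16 treated tumours below all Vehicle tumours, as 0.0170% of genes did.

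The drugs were also compared directly in 6 pairs, and the edgeR test called 0 of 39 members in each. RMC-7977 was lower than RMC-4550 in 35 members (51.6% of all genes were lower), with a median of -0.24. At an unadjusted p of 0.05 there were 8 lower and 0 higher (4.34% and 3.05% of all genes), and 7 members did not overlap (4.21% of genes, lower). MCM10 (-1.21 ± 0.26, adjusted p = 0.0814) and RRM2 (-0.98 ± 0.21, adjusted p = 0.0846) were among these 7 and missed the threshold, where 0.0906% of genes passed in either direction. DESeq2 and the fit without the 4 libraries apart called both genes, at backgrounds of 0.884% and 1.08%. Against Trametinib, RMC-7977 was lower in 28 members (48.8% of genes) with a median of -0.18 and 7 lower and 0 higher at an unadjusted p of 0.05 (12.1% and 6.04% of genes). GINS4 (-0.70 ± 0.19, adjusted p = 0.0897), RRM2 (-0.69 ± 0.21, adjusted p = 0.109) and MCM10 (-0.80 ± 0.26, adjusted p = 0.118) came nearest, with 0.408% of genes called, and DESeq2 called these 3 at a background of 4.32%. Against Cobimetinib, RMC-7977 was lower in 29 members (51.0% of genes) with a median of -0.14 and 2 lower and 0 higher at an unadjusted p of 0.05 (3.16% and 4.29% of genes). These 2 were MCM10 (-0.72 ± 0.26) and POLD2 (-0.34 ± 0.13), with edgeR adjusted p of 0.375 and 0.478 and 0.278% of genes called. DESeq2 called POLD2 at a background of 1.59%.

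RMC-4550 was higher than Trametinib in 29 members and higher than Cobimetinib in 28, with medians of 0.12 and 0.14, while 46.1% and 47.6% of all genes were lower. Their smallest edgeR adjusted p were 0.482 and 0.597, 0% and 0.0283% of all genes were called, and DESeq2 called 0 members in each. At an unadjusted p of 0.05 there were 0 members in the first pair (8.42% of genes lower, 3.91% higher) and 3 higher in the second (1.95% of genes lower, 4.25% higher). Trametinib and Cobimetinib, both MEK inhibitors, split the members, with 18 lower and 21 higher under Trametinib (47.3% of genes lower), a median of 0.05 and a smallest edgeR adjusted p of 0.216, where 0% of genes were called. Before adjustment, 6 members were higher and 2 lower under Trametinib at p of 0.05 (10.2% and 6.58% of genes), and DESeq2 called 0. RRM2 differed between this pair by 0.26 ± 0.21 and MCM10 by 0.08 ± 0.25 (log2, SE). Doses were not matched, and a missed threshold does not show that the drugs act alike.

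The neighbouring pathways were read from lists drawn up with earlier results of these data known. In the comparison of RMC-7977 with Vehicle, 0 of 33 other replication and chromatin genes passed the edgeR test (3 lower and 1 higher at an unadjusted p of 0.05) and their median was -0.12. Other nucleotide supply genes gave 0 of 16 (2 lower unadjusted, median -0.21), E2F and S-phase control genes 0 of 27 (4 lower unadjusted, median -0.19) and mitosis genes 0 of 22 (4 lower unadjusted, median -0.29). Over all genes, 0.748% passed the edgeR test in this comparison, and 5.47% were lower and 4.87% higher at an unadjusted p of 0.05. DESeq2 called 1 of the first list higher and 2 of the third lower, where it called 3.04% of all genes. In the comparisons of the other 3 drugs with Vehicle, the edgeR test and DESeq2 called 0 in these 4 lists. In the order RMC-4550, Trametinib and Cobimetinib, edgeR called 0.0283%, 0% and 0% of all genes and DESeq2 0.198%, 2.09% and 0.00567%. At an unadjusted p of 0.05 each list had at most 5 genes. In the same order 1.42%, 7.17% and 2.31% of all genes were lower, and 2.82%, 11.7% and 0.986% higher. Calls in the 4 lists, in the order given above, moved with the fit. Without the 4 libraries apart, RMC-7977 gave 2, 1, 2 and 0 lower and 0 higher (6.38% of all genes called). Trametinib then gave 7, 1, 0 and 1 lower and 1, 0, 1 and 3 higher (15.1%). With limma voom, Trametinib gave 8, 1, 6 and 2 lower and 10, 5, 5 and 10 higher (44.6%). E2F1, the best known activator of replication genes, was at 0.02 ± 0.30, -0.09 ± 0.30, -0.45 ± 0.30 and 0.24 ± 0.30 (SE) in the 4 comparisons. MYC, a growth regulator downstream of ERK, was at -0.87 ± 0.21 under RMC-7977 (edgeR adjusted p = 0.0556) and 0.15 ± 0.21 under Cobimetinib. CCND1, the cyclin that relays ERK signals to the cell cycle, ranged from -0.70 to -0.34, and CCNE1, the cyclin of S-phase entry, from -0.10 to -0.03. MKI67, a proliferation marker, was at 0.14 ± 0.34, -0.18 ± 0.34, 0.32 ± 0.34 and 0.71 ± 0.33, with edgeR adjusted p of 0.963, 0.986, 0.613 and 1.00.

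By the list medians, genes that respond to ERK had larger fold changes than the replication genes under each drug. Single genes did not all follow this. Under Cobimetinib, ETV5 and SPRY4 changed less than PRIM2 (-0.53). Of 9 such genes tested, edgeR called 7 lower under RMC-7977, 1 under RMC-4550 (DUSP6), 0 under Trametinib and 0 under Cobimetinib. The list medians were -2.83, -1.64, -1.57 and -0.75. Over all genes, the edgeR test called 0.448%, 0.0113%, 0% and 0% lower in these 4 comparisons. Of the 9, 8 were lower under Trametinib and 3 under Cobimetinib at an unadjusted p of 0.05, where 7.17% and 2.31% of all genes were. DESeq2 called 4, 7 and 0 of them in the same order, with 0.198%, 2.09% and 0.00567% of all genes called. ETV4, a transcription factor induced by ERK, had log2 fold changes of -4.49 ± 0.58, -2.02 ± 0.48, -1.63 ± 0.48 and -0.78 ± 0.45 (SE), and ETV5, its relative, -2.71 ± 0.38, -1.10 ± 0.35, -0.59 ± 0.34 and -0.15 ± 0.33. SPRY4, a feedback inhibitor of the pathway, was at -3.40 ± 0.65, -2.56 ± 0.61, -2.35 ± 0.60 and -0.20 ± 0.53. In the RMC-4550 group RRM2 and MCM10 were at 97.4 ± 23.9 and 29.1 ± 8.15 CPM (SD, n = 4) against 95.0 ± 22.4 and 27.6 ± 9.84 CPM under Vehicle (SD, n = 6). The relation of RRM2 and MCM10 to the ERK-responsive genes was not tested.

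**Figure D5:**
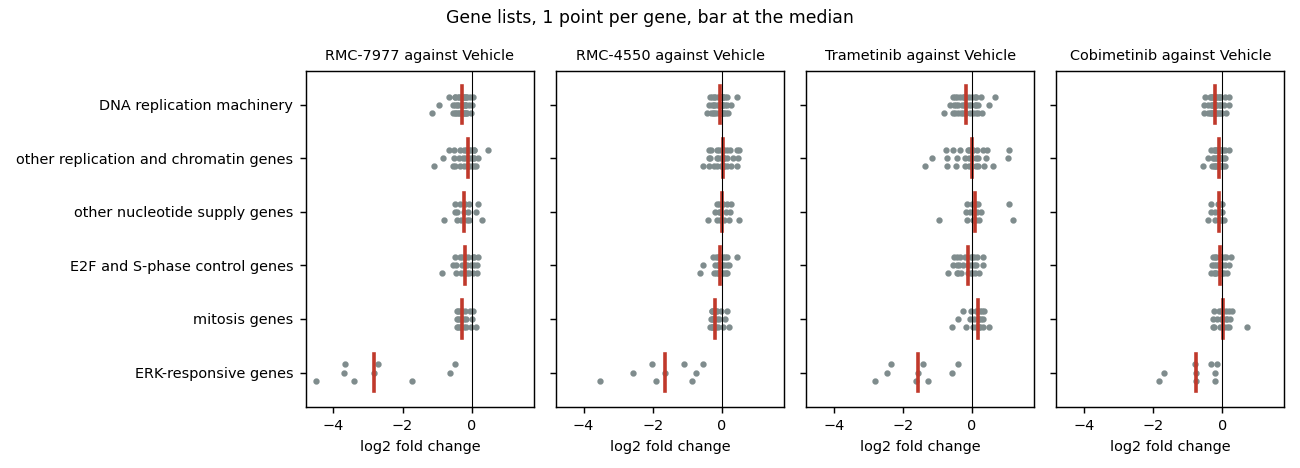
Log2 fold change against Vehicle of every gene tested (points) in 6 lists (rows) for the 4 drugs (panels), with the list median as a red bar. The replication genes have medians of -0.28, -0.05, -0.18 and -0.20, and the ERK-responsive genes -2.83, -1.64, -1.57 and -0.75.

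Among the genes listed as markers of other cells, only LAPTM5 and PECAM1 passed the edgeR test under RMC-7977, and both were lower. The leukocyte list (4 of 7 tested) summed to 6.08 to 8.33 CPM under RMC-7977 and 9.31 to 26.4 CPM under Vehicle. RMC-4550 gave 7.78 to 14.1 CPM, Trametinib 12.7 to 32.9 CPM and Cobimetinib 9.68 to 21.5 CPM. The endothelial list (3 of 4 tested) summed to 8.98 to 20.9 CPM under RMC-7977, 20.7 to 49.2 CPM under Vehicle, 26.2 to 35.2 CPM under RMC-4550, 24.7 to 92.4 CPM under Trametinib and 20.9 to 34.5 CPM under Cobimetinib. Of the 4 leukocyte genes tested LAPTM5 fell (-3.75 ± 0.66, edgeR adjusted p = 0.00591) and 3 did not pass, with values up to 0.03 and a list median of -0.79. Of the 3 endothelial genes PECAM1 fell (-1.71 ± 0.36, edgeR adjusted p = 0.0235), and the other 2 did not pass, 1 of them lying above 0 at 0.77. PECAM1 makes up most of the endothelial sum, with a median over all tumours of 26.3 CPM against 1.18 for VWF and 0.731 for CDH5. PTPRC, CD3E, CD68, KDR and 6 of 7 fibroblast markers were too low to be tested, as were all muscle and erythroid markers, and HBB was at 0 in every tumour. The epithelial list, 7 of 7 tested, summed to 2949 to 4217 CPM under RMC-7977 and 3267 to 4094 CPM under Vehicle. The part of these shifts in the lower RRM2 and MCM10 was not tested.

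Replication genes did not vary as 1 block from tumour to tumour. Within groups, over the 22 tumours and after taking out group means, the median correlation between pairs of members was 0.19, and 63.2% of the 741 pairs were positive. TIMELESS (r = 0.89), MCM4 (0.84) and FEN1 (0.83) followed the mean of the other members most closely, whereas RFC5 (-0.62), RFC2 (-0.60) and POLE2 (-0.60) ran against it. These correlations describe tumours that share library preparation and differ in depth and GC trend, and they carry no test. Without Trametinib replicate 4, RFC5 and RFC2 were only at -0.27 and -0.31, so their opposite course rested largely on that tumour, and POLD1 went from -0.18 to 0.58. TIMELESS, MCM4 and FEN1 were then at 0.85, 0.77 and 0.74, and POLE2 at -0.62. In Trametinib replicate 4, 19 members lay below and 7 above the whole Vehicle range. RMC-4550 replicate 1 had 13 below and 6 above. The 4 RMC-7977 tumours had 12 to 18 below and 0 or 1 above, and the 4 Cobimetinib tumours 6 to 12 below and 0 to 3 above. The share of all genes outside the Vehicle range was not computed for single tumours. These counts therefore have no background and describe the members only.

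GC content separated the members in some comparisons and not in others. The members' GC content ran from 38.8% to 65.2% with a median of 49.1%. Its correlation with the log2 fold change was taken across the 39 genes, which are not independent replicates. The Pearson correlation was 0.02 for RMC-7977, -0.64 for RMC-4550, -0.30 for Trametinib and 0.29 for Cobimetinib. The Spearman rank correlation was -0.08, -0.63, -0.45 and 0.15 in the same order. With a correction for GC content RRM2 and MCM10 remained the members called under RMC-7977 (-0.98 ± 0.19 and -1.18 ± 0.24, edgeR adjusted p of 0.00695 and 0.0125), with 1.64% of genes called. The 18 members with an E2F-like word in the promoter windows described above had a median log2 fold change of -0.25 under RMC-7977, with 16 below 0. The 17 with a promoter but no such word had -0.36, with 17 below 0.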

How the data were processed

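RNA-seq counts of 22 tumours were used. The authors deposited raw whole-number read counts per gene, with a column of gene lengths in bases; the submitters' processing notes name the build hg38, the aligner HISAT2 2.0.5, the counter featureCounts 1.5.0-p3, and also fastp, edgeR 3.22.5 and DESeq2 1.20.0. How strand, reads that map to several places and reads from the host were handled is not given in the sources used here. All 58735 genes have the same position in GENCODE 29, and their deposited lengths equal its exon unions. GC content came from its transcripts (58676 genes).

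Groups were taken from the labels. Counts were scaled by TMM and fitted once over all 22 tumours with edgeR 4.0.16 (quasi-likelihood, robust, R 4.3.3). The filterByExpr filter (minimum count 10) left 17652 genes with 99.7% of counts, and the biological coefficient of variation was 0.368. From this fit 11 comparisons were drawn, with Benjamini-Hochberg adjustment over all genes tested and a threshold of 0.05. SEs are the log2 fold change divided by the root of F. Group levels use log2 CPM with a prior count of 2, and TPM was computed from the deposited lengths. The scripts were tested on simulated data.

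The 39 members, the other gene lists and the libraries set apart were chosen with earlier results of these data known. Values per tumour are given for members past the threshold in a comparison with Vehicle or in the mean of 4 drugs, and for the member of each complex with the smallest unadjusted p in that mean; others are named as chosen after their values were seen. Of the other lists, the text names fixed genes (E2F1, MKI67, CCNE1, CCND1, MYC, DUSP6, ETV4, ETV5 and SPRY4).

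The replicate numbers are shared between groups, and the labels do not say what a number stands for. Deviations of same-numbered tumours correlated over 0.1 in all 3 pairs for Vehicle with RMC-4550 (0.17 to 0.71). The same held for Vehicle with Trametinib (0.14 to 0.20), and for no other combination of groups. The main fit holds no term for the replicate number, so its comparisons are unpaired. The replicate block was fitted only as an alternative, for all comparisons alike. The alternatives were DESeq2 1.42.0, limma 3.58.1 (voom with library quality weights), other scalings and filters, a GC correction, a replicate block, a fit to the compared groups alone, and fits without single tumours or the libraries set apart. Depth ran from 7761987 to 17265754 counts.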

Additional observations from a re-analysis of the deposited data

Results flagged for a closer look

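In each group, a gene's CPM was examined for a single tumour far from the rest by the size of its gap to the nearest tumour against the group's range. This was done in 200 groups of values, where chance alone marks about 1 in 20, and 29 were marked.

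Vehicle replicate 1 gave 11 of them. It was lowest for CDT1 (27.2 CPM), MCM3 (168 CPM), MCM5 (85.2 CPM), POLD1 (17.4 CPM), POLE (28.3 CPM) and LIG1 (32.4 CPM). It was highest for GINS1 (42.1 CPM), RFC3 (102.1 CPM), PRIM1 (25.2 CPM), PRIM2 (34.7 CPM) and RRM1 (199 CPM). The widest of these gaps in fold terms was POLE, which the other 5 Vehicle tumours had at 172 to 199.8 CPM.

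RMC-4550 replicate 1 was lowest for CDT1 (25.9 CPM) and highest for GINS2 (47.6 CPM), RFC4 (90.8 CPM), RFC5 (51.2 CPM) and POLE2 (66.6 CPM). RMC-4550 replicate 4 was lowest for RRM2 at 61.7 CPM, where the other 3 tumours had 106 to 112 CPM.

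Trametinib replicate 4 was lowest for MCM6 (55.7 CPM) and for the mean log2 CPM of the 39 genes (5.38), and highest for RFC5 (71.8 CPM) and POLD1 (209 CPM). Trametinib replicate 2 was highest for POLA1 (23.4 CPM).

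Cobimetinib replicate 3 was lowest for MCM2 (55.6 CPM) and highest for PRIM1 (20.7 CPM) and POLE2 (50.9 CPM). Cobimetinib replicate 2 was lowest for CDC6 (64.9 CPM) and Cobimetinib replicate 4 for RFC5 (37.1 CPM). Under RMC-7977, replicate 3 was lowest for LIG1 (30.9 CPM) and replicate 2 highest for TK1 (93.0 CPM).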

How the results depend on the processing

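Of 282 recomputed counts, medians and group levels of the replication genes, 255 kept within the spread used as a limit (1.5 times for a count of calls, and for a level or a median 1 SD of the members' mean level within groups) and 27 moved, and of 480 values of named members 25 changed sign. The cause was not tested for any of them. In RMC-7977 against Vehicle, where 2 members were called, the count was 4 with DESeq2 (3.04% of all genes) and 14 with limma voom (16.7%). It was 6 without the 4 libraries apart (6.38%) and 0 with only the groups compared. With a replicate block it was 0, where 0.0113% of all genes were called. RRM2 and MCM10 were then at -0.67 and -0.72 (edgeR adjusted p = 0.806 for both). With the GC correction added it was also 0, where 0.13% of all genes were called. The 2 genes were then at -0.71 and -0.75 (edgeR adjusted p = 0.426 and 0.473). Vehicle replicates 5, 6 and 7 have no same-numbered drug tumour, so they do not inform the drug differences under the block. The RMC-7977 tumours share only a number with Vehicle, and 0 of 6 tumours correlated best with their own number. In the comparisons of RMC-4550 and Trametinib with Vehicle the block changed no member's call, and with it 0% of all genes were called. Leaving out 1 tumour gave 0 to 3 calls in RMC-7977 against Vehicle, 0 to 2 against RMC-4550 and 0 to 2 against Trametinib. The median of the members then went from 0.05 to -0.04 in Trametinib against Cobimetinib, without Trametinib replicate 2. It ranged from -0.35 to -0.26 in RMC-7977 against Vehicle, from -0.11 to -0.01 in RMC-4550 (nearest 0 without Vehicle replicate 1), from -0.27 to -0.10 in Trametinib (nearest 0 without Trametinib replicate 4), and from 0.06 to 0.15 in RMC-4550 against Cobimetinib (lowest without RMC-4550 replicate 3). The tumours whose absence moved the second count were Vehicle replicates 2 and 5, RMC-4550 replicate 4 and Trametinib replicate 4, and for the third it was Trametinib replicate 3.

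In Trametinib against Vehicle the count of 0 became 18 with limma voom (44.6% of all genes) and 4 without the 4 libraries apart (15.1%), and the median of -0.18 became -0.044 with limma voom and -0.035 with the replicate block and GC correction. For the mean of 4 drugs 0 became 10 and 2 with the same 2 settings (15.3% and 3.99% of all genes). In RMC-7977 against RMC-4550, 0 became 2 with DESeq2 (0.884% of all genes) and 1 with the GC correction (0.261%). It became 1 with the replicate block and GC correction (0.306%) and 4 with limma voom (5.31%). The count was 2 without the 4 apart (1.08%) and 2 when both libraries in which low counts were scarce were left out (0.745%). In RMC-7977 against Trametinib it became 3 with DESeq2 (4.32% of all genes) and 1 with the GC correction (1.06%). It was 21 with limma voom (5291 of all 17652 genes) and 2 without the 4 apart (5.3%). In RMC-7977 against Cobimetinib it was 1 with DESeq2 (1.59% of all genes) and 1 with limma voom (8.7%). The limma voom fit also gave 2 in RMC-4550 against Trametinib (21.1%) and 16 in Trametinib against Cobimetinib (37.4%). With limma voom, 2 of 39 lay below the share over all genes and 16 of 39 near it. In a promoter window of 200 bases, 0.0% of members held a CHR-like word.

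The signs that changed belong to log2 fold changes in the comparisons of RMC-4550, Trametinib and Cobimetinib with Vehicle, none of which passed the test. They included values as far from 0 as MCM10 at -0.42 (Cobimetinib) and -0.34 (Trametinib), RRM2 at -0.25 and POLD2 at -0.22 (Trametinib), and TIMELESS at -0.24 (RMC-4550). With the replicate block they were MCM10 0.064 and RRM2 0.021 (Trametinib), RFC4 0.17 and TIMELESS 0.068 (RMC-4550), and RFC4 0.12 and TIMELESS 0.12 (Cobimetinib). With the block and GC correction they were MCM10 0.055, RRM2 0.011 and POLD2 0.066 (Trametinib), RFC4 0.080 and TIMELESS 0.042 (RMC-4550), and MCM10 0.041, RFC4 0.17 and TIMELESS 0.067 (Cobimetinib). With the GC correction they were MCM10 -0.0026, RRM2 -0.040 and POLD2 0.041 (RMC-4550) and POLD2 0.12 (Trametinib). With limma voom they were MCM10 -0.016, RRM2 -0.062 and PRIM2 0.012 (RMC-4550) and PRIM2 0.16 (Trametinib). Without the 4 libraries apart they were CDC6 0.0025 and RRM2 -0.0083 (RMC-4550) and PRIM2 0.083 (Trametinib). Leaving out 1 tumour ranged from -0.16 to 0.027 for CDC6, -0.093 to 0.27 for MCM10, -0.063 to 0.021 for RFC4, -0.20 to 0.037 for PRIM2 and -0.078 to 0.19 for RRM2 under RMC-4550, from -0.29 to 0.0076 for PRIM2 under Trametinib, and from -0.13 to 0.00075 for RFC4 under Cobimetinib.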
